A study of Mus musculus with 4 samples.

Results

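The stroma of the mouse epididymis and vas deferens held a population with contractile genes, called the myofibroblasts of the peritubular stroma here. It made up 11.0% of the 8880 cells in a single-cell RNA-Seq atlas of these organs, whose authors gave this identity as tentative. The population is the group named Connective in the annotation deposited with the counts, chosen by the number of cells in it, which no other group of that annotation shared. Its members were 184 cells of the caput, 420 of the corpus, 162 of the cauda and 209 of the vas deferens, and all of them were used. The study cut the epididymides of FVB/NJ male mice aged 10-12 weeks into these 4 regions, pooled 8 segments from 4 animals for each, digested them warm with collagenase and then trypsin, and made 1 droplet library (10X Chromium, 3' ends) per region. The labels name no transgene or treatment, and nothing in the counts ties a cell to an animal. Each region is therefore 1 pooled sample without replicates, so the values below carry counting error only and no test between populations was made. The counts that defined the populations are also the counts compared here, and differences between populations are given as descriptions.

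The compared cells were the other 4 stromal groups and both muscle groups of the same annotation. The stromal groups were a stem-like group (6.18% of all cells), a group with few unique molecular identifiers (UMIs) per cell (3.59%, named for *Il6* in the annotation and called low-UMI here), a secretory group (2.55%) and fibroblasts (1.72%). The muscle groups were a larger one (2.95%), called the main muscle group here, and one named for *Gfra4* (2.70%, 240 cells). The myofibroblasts had 3837390 UMIs in all, with a median of 3821 per cell, and the medians in the compared groups ran from 670 in the low-UMI group to 5423.5 in the *Gfra4* muscle. Populations and libraries overlapped unevenly, since 94.2% of the stem-like and of the secretory cells, 87.8% of the muscle cells and 86.3% of the *Gfra4* muscle cells came from the vas deferens, against 21.4% of the myofibroblasts. Values within the vas deferens library are therefore given beside the pooled ones for some of the genes. In the whole dataset, 86 cells had a barcode that also occurred in another library, 13 of them myofibroblasts. The cells with the highest doublet scores were marked in each library, up to an assumed rate of 0.8% per 1000 cells. That rate set the total at 178 marked cells (2.00%), 14 of them myofibroblasts.

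Myofibroblasts are stromal cells that lay down extracellular matrix and also carry the actin and myosin bundles of smooth muscle. In smooth muscle, calcium and calmodulin activate myosin light chain kinase (*Mylk*), which phosphorylates the regulatory light chain (*Myl9*) so that the heavy chain (*Myh11*) pulls on actin filaments (*Acta2*, *Actg2*), while tropomyosins (*Tpm1*, *Tpm2*), calponin (*Cnn1*) and transgelin (*Tagln*) bind along those filaments. In the epididymis, contractile cells around the duct are known to move sperm and fluid through the lumen. Many smooth muscle genes are controlled by serum response factor, which binds a short element called the CArG box.

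The CArG boxes of these genes are shown first because the marker genes that name the population are among the classic genes of that factor. The box was searched as CC, 6 bases that are A or T, and GG, a pattern that is the same on both strands, from 250 bases before to 50 after each start site in RefSeq (GRCm38.p6). Of the 36 genes in the contractile list, 31 had a promoter in that table, and 7 of the 31 (22.6%) held a box, beside 206 of 12593 measured genes (1.64%) and 535 of all 32851 promoters (1.63%). With 1 of the 6 central bases free, 11 contractile genes (35.5%) and 10.8% of the measured genes held a match. *Tagln*, *Actg2*, *Myh11* and *Nexn* were among those with no entry in the table. The strict boxes of 5 of these genes and the looser matches of *Acta2* and *Myl9* follow, 5' to 3' on the gene's strand, with the 10 bases of the match in capitals. A match is a run of letters, and binding was not measured.
Myl9, 161 bases before the start, chr2:156775293-156775322, plus strand: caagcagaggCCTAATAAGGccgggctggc
Myl9, 99 bases before the start, chr2:156775355-156775384, plus strand: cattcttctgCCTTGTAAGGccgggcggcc
Acta2, 84 bases before the start, chr19:34255438-34255467, minus strand: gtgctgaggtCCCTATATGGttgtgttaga
Acta2, 34 bases before the start, chr19:34255388-34255417, minus strand: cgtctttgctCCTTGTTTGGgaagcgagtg
Acta1, 73 bases before the start, chr8:123894829-123894858, minus strand: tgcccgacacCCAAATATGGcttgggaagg
Myl6, 50 bases before the start, chr10:128493040-128493069, minus strand: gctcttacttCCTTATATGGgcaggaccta
Cnn2, 56 bases before the start, chr10:79988534-79988563, plus strand: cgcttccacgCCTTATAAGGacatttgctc
Vcl, 227 bases before the start, chr14:20929161-20929190, plus strand: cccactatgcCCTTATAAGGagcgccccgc
The *Myl9* promoter held a strict box and a looser one, while both matches of *Acta2* were looser ones.

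All 3 marker genes were present at high levels in every library of the myofibroblasts. Levels are UMIs per 1000000 UMIs of the population (UPM), with exact Poisson 95% intervals in parentheses, and they are compared between populations, not between genes. *Acta2* (smooth muscle alpha-actin; GRCm38 chromosome 19, 34240336 to 34255585) reached 7212 UPM (7128 to 7298). By library it stood at 10781 (caput), 5873 (corpus), 7433 (cauda) and 6187 UPM (vas deferens). *Tagln* (chromosome 9, 45929628 to 45936058) reached 4809.8 UPM (4741 to 4879.7), with 4382 (caput), 2935 (corpus), 9774 (cauda) and 4133 UPM (vas deferens). *Myl9* (chromosome 2, 156775408 to 156781657) reached 3459 UPM (3401 to 3519), with 4183 (caput), 2695 (corpus), 4084 (cauda) and 3867 UPM (vas deferens). The caput was highest for *Acta2* and *Myl9*, the cauda for *Tagln*, and the corpus was lowest for all 3.

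In single cells, drawn down to 1000 UMIs each so that depth did not set the share (879 cells had that many and 96 did not), *Acta2* was seen in 86.7% of the myofibroblasts (Clopper-Pearson 95% interval 84.3 to 88.9%), *Myl9* in 81.1% and *Tagln* in 71.7%. Without thinning, the shares over all the cells were 85.9, 85.5 and 74.7%. UMIs of all 3 genes occurred together in 63.5% of the thinned cells (60.2 to 66.7%), and 59 cells (6.71%) had none of them. The share with all 3 was 78.8% (caput), 49.6% (corpus), 76.0% (cauda) and 67.5% (vas deferens). In cells that should lack these genes it was 0.422% of the principal cells (median 934.5 UMIs), 0.0866% of the basal cells (median 4333) and 0 of 158 immune cells (median 2887), which allows up to 2.31%. The highest such share was in endothelial cells, 3% of 200 (1.1 to 6.4%). By library it was 10.8% of 37 (caput), 6.25% of 32 (corpus) and 0 of 120 (vas deferens). *Acta2* alone was seen in 3.54% of the principal cells and 3.80% of the immune cells. Among the stromal groups, all 3 markers occurred in 51.2% of the low-UMI cells, 4.10% of the fibroblasts, 1.18% of the stem-like cells and 0 of 185 secretory cells, which allows up to 1.97%, and among muscle they occurred in 92.1 and 100% of the cells. The study described the group by these markers and clustered it on these same counts, so their presence is no independent check of the label. Whether the cells lay around the tubule cannot be read from dissociated cells.

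The contractile genes as a group set the myofibroblasts between the other stroma and muscle. Genes were compared by the ratio of their levels, and a gene was called when the ratio passed 4-fold with at least 20 UMIs in the higher group. Against the other stromal cells pooled, 170 of 9765 genes (1.74%) were higher in the myofibroblasts and 273 (2.8%) were lower. Of the 34 contractile genes that could be called, 14 were higher and 0 lower, with a median ratio of 3.44 beside 1.09 over all genes. Against both muscle groups pooled, 871 of 8741 genes (9.96%) were higher and 402 (4.6%) lower. Of 35 contractile genes, 1 was higher and 16 were lower than in muscle, with a median ratio of 0.285 beside 1.03 over all genes. Together the contractile genes took 3.97% of the UMIs of the myofibroblasts, 0.845% of those of the other stromal cells and 16.5% of those of muscle. The list includes the 3 marker genes, all 3 among the 14 higher ones. Their own shares were 1.55% in the myofibroblasts, 0.197% in the other stromal cells and 3.88% in muscle. The study described the group by these markers on the same counts, so their part in the contrast with stroma was set in advance. The counts changed most when the vas deferens library was left out. Without it, 25 genes were higher and 145 lower than in the other stroma, and 363 were higher and 110 lower than in muscle. Leaving it out also removed 94.2% of the stem-like and of the secretory cells and most muscle cells. The make-up and size of the compared groups therefore changed too, and shares over the genes that could be called are not given for this setting. In the caput, where the other stroma was 66 low-UMI cells, 5 stem-like cells and 4 fibroblasts, the contractile share was 4.59% in the myofibroblasts and 4.36% in the other stroma, while in the vas deferens it was 3.87 against 0.472%.

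**Figure D1:**
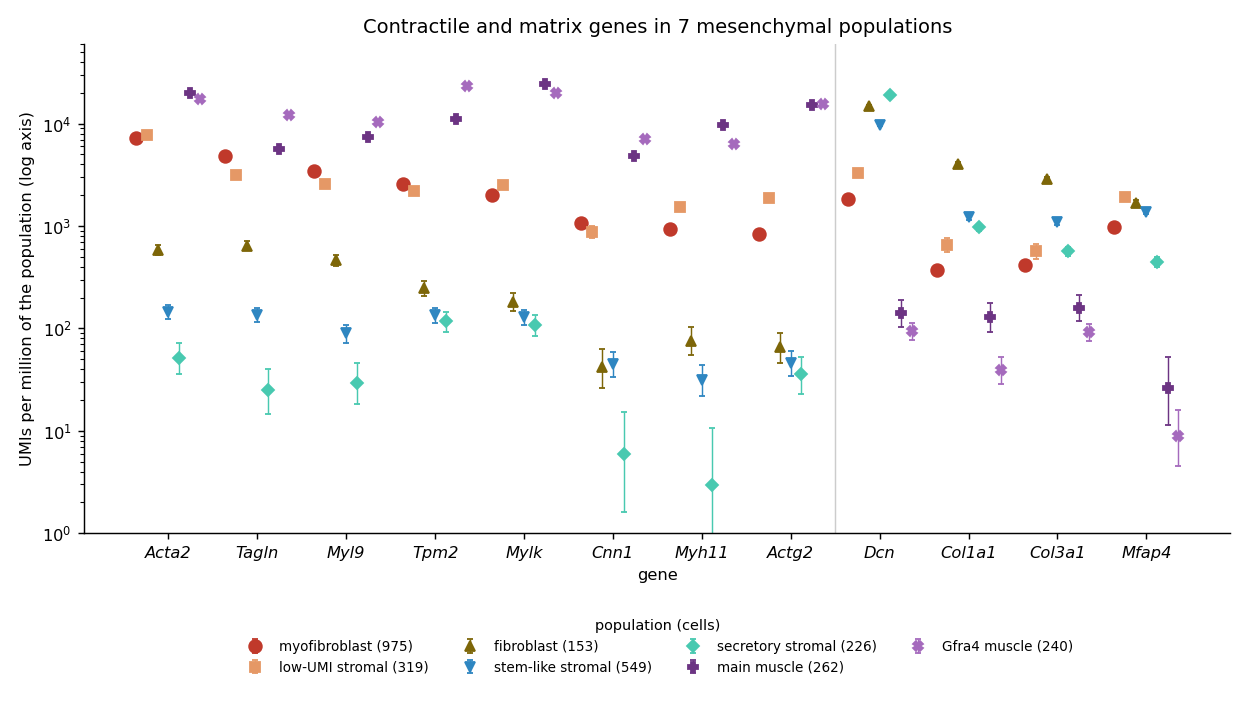
Level of 8 contractile genes (left of the line) and 4 matrix genes (right) in the 7 populations, in UPM on a log axis, with exact Poisson 95% intervals as bars. For the contractile genes the myofibroblasts and the low-UMI group lie between both muscle groups above and the other 3 stromal groups below, and for *Dcn*, *Col1a1* and *Col3a1* the order of muscle and stroma is turned round.

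The thin-filament genes followed that order one by one. *Acta2* was 7.08-fold (6.81 to 7.37) higher than in the other stromal cells pooled and 2.50-fold (2.45 to 2.54) lower than in muscle. Its ratio to the other stroma was 3.51 by the mean over cells and 3.39 against the mean of the 4 groups' UPM, both under 4-fold. The stem-like cells had 146 UPM of it, the secretory cells 51.8, the fibroblasts 581 and the low-UMI group 7742, the last above the myofibroblasts' own level. Within the vas deferens library the *Acta2* ratio to the other stromal cells was 21.3 and that to muscle 0.361, while without that library the ratio to the other stroma was 2.59 and without the corpus 11.2. Leaving out the vas deferens likewise gave 3.20 for *Tagln*, 2.89 for *Myl9* and 3.02 for *Tpm2*, all under 4-fold, and leaving out the corpus gave 13.6 for *Tagln*. *Tagln* stood 8.98-fold above the other stromal cells and 2.27-fold below muscle, and the tropomyosin *Tpm2* 6.80-fold above and 8.11-fold below. Within the vas deferens library the ratios to the other stroma were 30.0 for *Tagln*, 33.9 for *Myl9* and 14.1 for *Tpm2*. Against the main muscle group alone the ratio was 0.845 for *Tagln* and 0.228 for *Tpm2*, and against the mean of the 4 stromal groups' UPM *Tpm2* was at 3.75, under 4-fold. Calponin *Cnn1* was 8.83-fold above stroma and 6.17-fold below muscle. The exception in the list was *Tpm4*, a tropomyosin of non-muscle cells as well, which was 5.35-fold higher than in muscle and 1.07-fold against the other stroma.

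Genes of the myosin motor and other actin isoforms spread widely in their distance to muscle. The light chain *Myl9* was 8.38-fold above the other stroma and 2.86-fold below muscle. *Mylk*, the light chain kinase, was at 2012 UPM, 5.20-fold above the other stroma and 10.4-fold below muscle. *Myh11*, the smooth muscle heavy chain, was at 942 UPM, 4.90-fold above stroma and 7.40-fold below muscle. The gamma smooth muscle actin *Actg2* was at 839 UPM against 15367 in the main muscle group and 15395 in the *Gfra4* muscle, a level 18.3-fold lower. Skeletal alpha-actin *Acta1* was 23.7-fold lower than in muscle, smoothelin *Smtn* 10.9-fold, the small heat shock protein *Hspb6* 33.2-fold, and the Z-band protein *Ldb3*, with 14 UMIs in the population, 76.4-fold. Desmin (*Des*), the muscle intermediate filament, was nearer, 4.70-fold above the other stroma and 3.28-fold below muscle. Across the list, then, the distance to muscle ran from 2.27-fold for *Tagln* to 76.4-fold for *Ldb3* among the genes named here, with *Tpm4* on the other side.

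Several calcium-linked genes of muscle were far lower in the myofibroblasts. The calmodulin-binding peptide *Pcp4* was at 232 UPM against 7475 and 16483 in the muscle groups, and the fast troponin C *Tnnc2* at 8.34 against 1014 and 2978. Of 25 calcium and excitation genes that could be called against muscle, 7 were lower, among them the L-type channel *Cacna1c* (8.96-fold), the ryanodine receptor *Ryr2* (23.3-fold) and the potassium channel *Kcnma1* (5.49-fold). Another 6 were higher than in muscle. Over all genes, 4.6% were lower and 9.96% higher than in muscle. The related channel *Cacna1d* was at 145 UPM, 4.33-fold (3.46 to 5.48) above the other stroma, and had 5 UMIs in muscle against 558 in the myofibroblasts. The calcium-activated chloride channel *Ano1* was 17.5-fold (9.91 to 34.0) higher than in muscle. Against the other stroma, 3 of 23 genes were higher, namely *Cacna1d*, *Kcnmb1* (6.14-fold) and the calcium pump inhibitor *Pln*, and 0 were lower. The shares over all genes there were 1.74% higher and 2.8% lower. *Pln* had 54 UMIs in the myofibroblasts and 0 in the other stromal cells, at least 12.4-fold higher against a floor of 3 UMIs over the group.

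Genes of a list of receptors and ligands linked to the control of contraction, in either direction, also differed from muscle. Muscarinic receptor *Chrm2* had 0 UMIs in the myofibroblasts and 36 in muscle, at least 30.2-fold lower, the ATP receptor *P2rx1* was 126-fold lower, and the adrenergic receptor *Adra1a* was 7.30-fold (3.46 to 16.8) lower. Endothelin and angiotensin genes went the other way. The endothelin receptor *Ednrb* was at 35.2 UPM, 4.05-fold (2.59 to 6.61) above the other stroma and 17.9-fold (5.99 to 87.8) above muscle, where it had 3 UMIs. Its ligand *Edn3* stood 5.88-fold (4.60 to 7.62) above the other stroma, had 1 UMI in muscle against 613 here (a ratio of 43.6 to 9637), and was found at 182 (caput), 207 (corpus), 136 (cauda) and 31.2 UPM (vas deferens). The angiotensin receptor *Agtr2* was at 171 (caput), 71.2 (corpus), 447 (cauda) and 0 UPM (vas deferens), and with 0 UMIs in muscle it was at least 79.6-fold higher. The vas deferens, which gave most muscle cells and most of the other stromal cells, was thus the lowest library for both genes. Of the 15 genes of this list that could be called, 6 were higher than in muscle and 4 lower, and 1 (*Ednrb*) was higher and 1 (*Ptgir*) lower than in the other stroma. All genes together had 9.96% higher and 4.6% lower than in muscle, and 1.74% higher and 2.8% lower than in the other stroma.

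Per cell, the contractile genes took a median of 3.1% of 1000 drawn UMIs in the myofibroblasts, with the 5th and 95th percentiles at 0.7 and 8.4%. By library the median was 4.2% (caput), 2.3% (corpus), 4.25% (cauda) and 3.3% (vas deferens). A share of 5% or more was reached by 244 of the 879 cells (27.8%), and 3 cells had none of these UMIs. The highest myofibroblast stood at 13.3%. In muscle the median was 14.85%, in the *Gfra4* muscle 17%, and no cell of either lay under 5%. The fibroblasts had a median of 0.5% and a maximum of 2.4%, and the stem-like and secretory cells each a median of 0.3%. The low-UMI cells with 1000 UMIs or more, 84 in number, had a median of 4.05%. The myofibroblast distribution therefore overlapped the fibroblasts at its lower end and the muscle groups at its upper end.

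**Figure D2:**
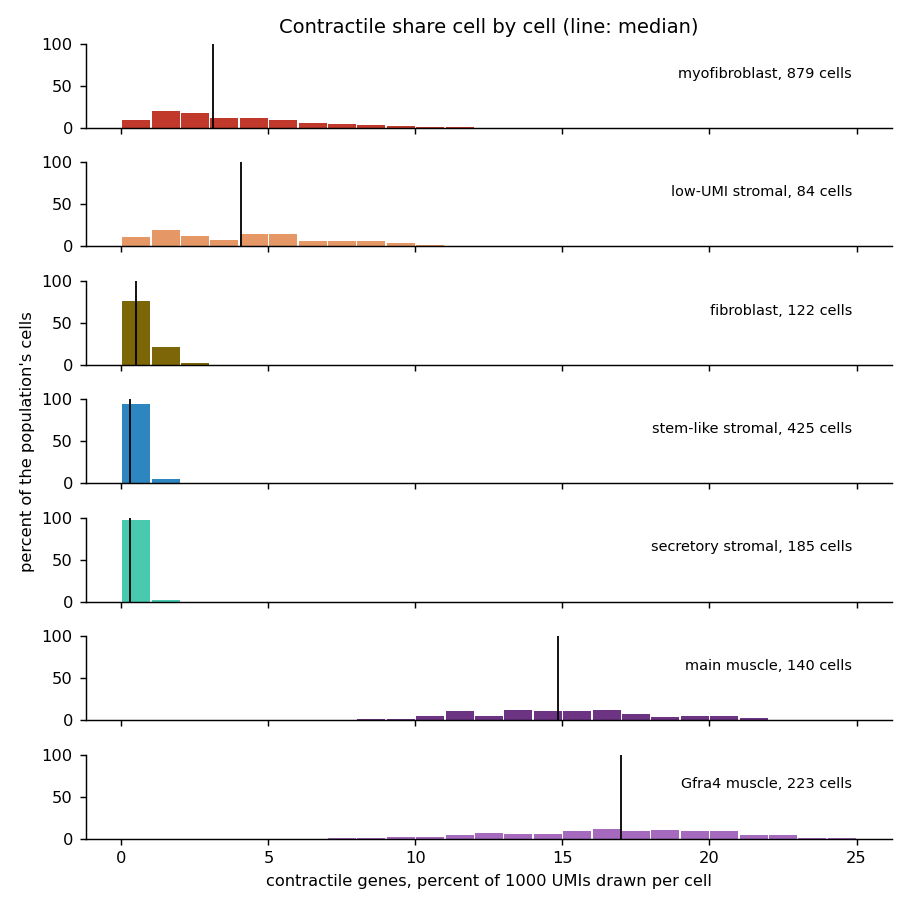
Percent of cells (vertical axis) by the percent of 1000 drawn UMIs that fell on contractile genes (horizontal axis), 1 panel per population, with the median as a line. The 879 myofibroblasts spread around 3.1%, the medians of the fibroblasts, stem-like and secretory cells are 0.5, 0.3 and 0.3%, and both muscle groups centre on 14.85 and 17%.

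Several matrix genes, *Dcn* and *Col1a1* among them, were lower in the myofibroblasts than in the pooled stroma and higher than in pooled muscle. The proteoglycan decorin, *Dcn*, which binds collagen fibrils, was at 1852 UPM (1809 to 1895), 6.71-fold (6.54 to 6.88) lower than in the other stromal cells and 17.9-fold (15.3 to 21.1) higher than in muscle. By library it was at 1985 (caput), 1383 (corpus), 3066 (cauda) and 1417 UPM (vas deferens). Within the vas deferens library its ratio was 0.102 to the other stroma and 13.6 to muscle. The secretory cells had 19089.5 UPM, the fibroblasts 14733, the stem-like cells 9595 and the low-UMI group 3312. *Dcn* UMIs occurred in 61.4% of thinned myofibroblasts, against 94.8% or more of the stem-like, secretory and fibroblast cells, 11.4 and 6.28% of muscle and 4.12% of the principal cells. Within single myofibroblasts, *Acta2* and *Dcn* occurred together in 53.6% of the cells. *Dcn* was found in 61.8% of the 762 cells with *Acta2* and in 59.0% of the 117 cells without it. By library, cells with both made up 69.1% (caput), 50.9% (corpus), 64.7% (cauda) and 36.6% (vas deferens).

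Collagens took a smaller share of UMIs than in any other stromal group, and about the share of the main muscle group. The 42 genes for collagen chains took 0.356% of the UMIs of the myofibroblasts, against 1.62% in the fibroblasts, 0.729% in the stem-like cells, 0.631% in the low-UMI cells, 0.609% in the secretory cells, 0.353% in the main muscle group and 0.140% in the *Gfra4* muscle. By library the share was 0.305% (caput), 0.326% (corpus), 0.404% (cauda) and 0.441% (vas deferens). The collagen I chain *Col1a1* was at 229, 369, 452 and 460.1 UPM in these libraries and 4.54-fold (4.28 to 4.82) lower than in the other stroma. Within the vas deferens library its ratio to the other stroma was 0.426, under 4-fold. Without the vas deferens library the *Col1a1* level was 0.110 of that in the other stroma, beside 0.220 with it. It was 6.54-fold higher than in both muscle groups pooled and 2.89-fold higher than in the main muscle group alone, under 4-fold. Of the 19 interstitial collagen genes that could be called against the other stroma, 0 were higher and 3 lower (*Col1a1*, *Col15a1*, *Col5a3*), while 11 of 18 were higher than in muscle and 0 lower. Basement membrane genes lay closer to both sides, with 1 of 24 higher than in stroma, the integrin ligand nephronectin (*Npnt*, 4.37-fold), and 7 of 24 higher and 2 lower than in muscle. For both lists, the shares over all genes were 1.74% higher and 2.8% lower against stroma, and 9.96% higher and 4.6% lower against muscle. The basement membrane list took 0.253% of the UMIs of the myofibroblasts, 0.237% of those of the pooled stroma and 0.225% of those of pooled muscle.

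Elastic fibre genes divided the myofibroblasts from muscle more than any other matrix list by median ratio. Of 18 that could be called, 13 were higher than in muscle and 1 lower (*Fbn2*), with a median ratio of 13.7, while against the other stroma 0 of 21 were higher and 3 lower (*Fbln1*, *Fbln2*, *Mfap5*). *Mfap4*, a microfibril protein, was at 1257 (caput), 1124 (corpus), 688 (cauda) and 595 UPM (vas deferens). It was 78.4-fold (50.2 to 130.4) higher than in muscle, which had 19 UMIs of it. Fibulin 5 (*Fbln5*) was at 77.7 UPM and 39.5-fold (13.4 to 192) higher than in muscle, with 3 UMIs there, and elastin (*Eln*) was 9.04-fold higher. Among proteoglycans and matricellular proteins, 15 of 25 were higher than in muscle and 0 lower, with osteoglycin (*Ogn*) 30.7-fold, matrix Gla protein (*Mgp*) 30.5-fold and *Sparc* 4.45-fold. Against the other stroma, 6 of 27 were lower, among them *Lum* (12.8-fold) and *Dcn*. Of the proteases and their inhibitors, 6 of 26 were lower than in the other stroma, with the gelatinase *Mmp2* 8.36-fold, and 13 of 21 were higher than in muscle, with *Adamts1* 9.67-fold. Beside these lists, 1.74% of all genes were higher and 2.8% lower than in the other stroma, and 9.96% higher and 4.6% lower than in muscle.

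**Figure D3:**
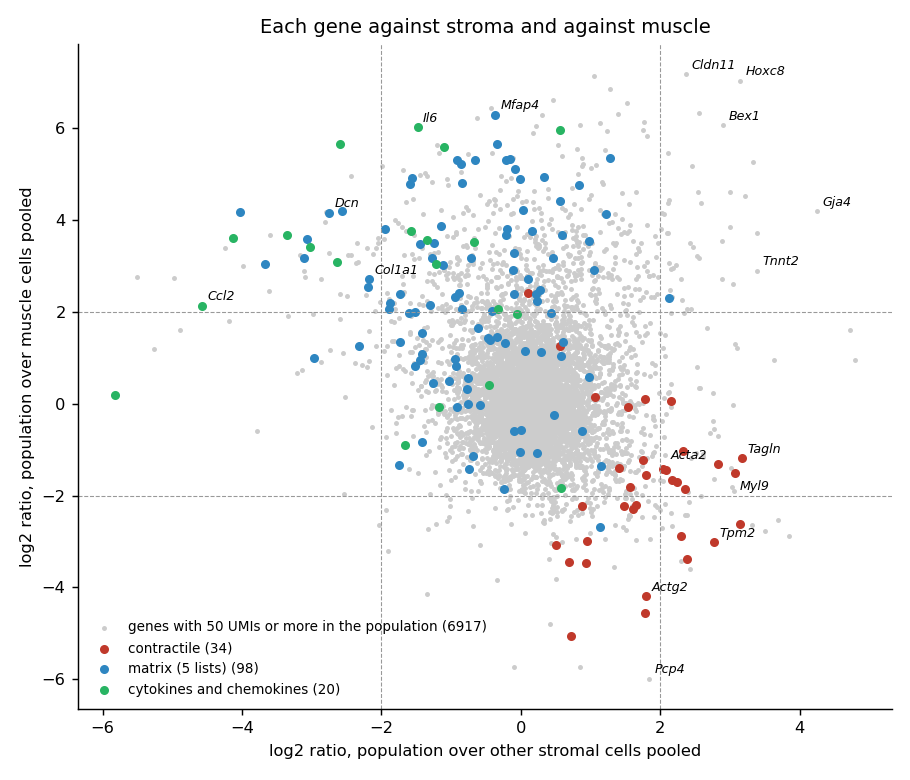
Log2 ratio of each of 6917 genes with 50 UMIs or more in the myofibroblasts, against the other stromal cells pooled (horizontal) and against both muscle groups pooled (vertical), with levels under 3 UMIs set to 3 UMIs and dashed lines at 4-fold. Contractile genes lie to the right of 0 (higher than stroma) and mostly below it (lower than muscle), and most matrix and cytokine genes lie to the left and above.

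The fewest genes were called against the low-UMI group, where the fewest could be. Against it, 8 of 3556 genes (0.225%) were higher in the myofibroblasts and 50 (1.41%) lower. The contractile list had 0 genes on either side of 32, and these genes took 4.06% of that group's UMIs. Other shares differed more, with ribosomal protein genes at 18.6% in the myofibroblasts and 6.77% in the low-UMI group, collagens at 0.356 and 0.631%, and cytokines and chemokines at 0.509 and 1.31%. Several of the 50 lower genes are secreted products of epithelial cells, such as the lipocalins *Lcn5* and *Lcn8* and the defensins *Defb22* and *Defb28*, and others, such as *Pecam1* and *Plvap*, mark endothelium, all named here after their values were seen. The deposited counts of the low-UMI group had 12.1% of its UMIs taken out as ambient RNA by the authors, against 2.86% in the myofibroblasts, and its part in these genes was not tested. *Il6* was at 5291 UPM in the low-UMI group and 982 in the myofibroblasts. The 8 higher genes included *Sap18*, *Pfdn5*, *Hypk* and *Tomm7*, also chosen after their values were seen. Since this group enters the pooled stroma, it brings the contractile ratios given against the pool nearer to 1.

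Against the remaining stromal groups, the counts of called genes were larger. The myofibroblasts were higher for 389 of 7779 genes (5.0%) and lower for 244 (3.14%) than the stem-like cells, higher for 644 of 6117 (10.5%) and lower for 242 (3.96%) than the secretory cells, and higher for 173 of 5410 (3.2%) and lower for 139 (2.57%) than the fibroblasts. Against the main muscle group, 441 of 4184 genes (10.5%) were higher and 467 (11.2%) lower, and against the *Gfra4* muscle 920 of 8083 (11.4%) and 314 (3.88%). Within the vas deferens library, where most compared cells came from, 178 of 5647 genes (3.15%) were higher and 163 (2.89%) lower than in the other stroma, and 475 of 6201 (7.66%) were higher and 349 (5.63%) lower than in muscle. Of the 170 genes higher than in the pooled stroma, 59 could be called in that library, all 59 had the same direction there and 55 passed 4-fold. Of the 273 lower ones, 192 could be called, all 192 kept the direction and 114 passed. These genes were called on pooled counts that hold the same library, with 1900653 UMIs of the other stroma. Agreement there is therefore largely built in and is no independent check. Within the cauda library, 60 of the 170 higher genes could be called, 60 kept the direction and 33 passed. For the 273 lower genes these counts were 76, 74 and 56. The pooled counts hold the cauda library too, with 388740 UMIs of the other stroma, so this is no independent check either. Over all 4297 genes that could be called in the cauda, 1.56% were higher and 2.4% lower.

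Most of the study's markers of the secretory and stem-like groups were lower than in the pooled stroma. Of the secretory markers, 8 of 10 were lower and 0 higher, and *Il6*, with a ratio of 0.358, was not called. Against single groups, 5 of 10 were lower than in the fibroblasts (2.57% over all genes) and 2 of 8 than in the low-UMI group (1.41%). Of the stem-like markers, 3 of 3 were lower than in the pooled stroma and than in the stem-like cells. Against the fibroblasts 0 of 3 were lower, and against the secretory cells 0 of 2. The study picked both sets of markers on these same counts, and both groups are in the pool. Lower values against the pool were therefore largely set in advance. *Ptx3*, a secreted pattern-recognition protein, was at 7.82 UPM against 2414 in the secretory cells, and the cytokine *Tslp* was 10.2-fold below the pooled stroma. The stem-cell receptor *Lgr5* was at 30.2 UPM, 5.62-fold below it. Among genes outside the study's markers, complement component *C3* had 4 UMIs in the whole population and was 160.4-fold (62.2 to 591) lower. Of the 11 complement genes that could be called, 5 were lower and 0 higher, beside 2.8 and 1.74% over all genes. *Calb2*, a calcium-binding protein, had 0 UMIs against 321, at least 155-fold lower.

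Cytokines and chemokines were lower than in the pooled stroma, mostly through the secretory cells, and higher than in muscle. Of 26 that could be called against the other stroma, 0 were higher and 11 lower, with a median ratio of 0.348, and of 22 against muscle 16 were higher and 0 lower. Shares over all genes were 1.74% higher and 2.8% lower against the other stroma, and 9.96% higher and 4.6% lower against muscle. Group by group, 15 of 23 were lower than in the secretory cells (median ratio 0.161), 5 of 24 than in the stem-like cells (0.810) and 1 of 18 than in the low-UMI group (0.511), with 0 higher in each, while against the fibroblasts 1 of 21 was higher and 4 were lower (0.945). They took 0.509% of the UMIs of the myofibroblasts, 3.16% of those of the other stroma and 0.107% of those of muscle, with 8.56% in the secretory cells. The monocyte chemokine *Ccl2* was at 395 UPM, 23.8-fold below stroma, with 30047 UPM in the secretory cells. The neutrophil chemokine *Cxcl1* was 6.20-fold below stroma and *Cxcl14*, most abundant in the fibroblasts at 12447 UPM, 6.03-fold below. *Il6* was 2.79-fold (2.68 to 2.91) below stroma and 65.1-fold (43.3 to 103) above muscle, at 597 (caput), 1612 (corpus), 282 (cauda) and 621 UPM (vas deferens). Within the vas deferens library its ratio was 0.220 to the other stroma and 55.97 to muscle. Its ratio to muscle was 32.2 without the corpus, 106 without the cauda and 30.7 without the vas deferens, and its ratio to the other stroma was 0.203 without the corpus. The alarmin *Il33* was at 339.9 (caput), 211 (corpus), 213 (cauda) and 1.64 UPM (vas deferens), and muscle had 5 UMIs of it, most muscle cells coming from the vas deferens, where *Il33* was lowest in the myofibroblasts too. The dissociation-sensitive early response genes, such as *Fos*, took a share of the myofibroblast UMIs that was 3.74% (caput), 2.27% (corpus), 1.9% (cauda) and 1.69% (vas deferens), and the part of the warm digestion in them was not tested.

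Among transcription factors, 1 of 62 genes was higher than in the other stroma (*Hoxc8*) and 4 were lower (*Foxf1*, *Gata6*, *Hoxd13*, *Wt1*), while 14 of 59 were higher than in muscle and 3 lower (*Hoxa13*, *Hoxd13*, *Meis2*). Over all genes the shares were 1.74% higher and 2.8% lower against stroma, and 9.96% higher and 4.6% lower against muscle. *Hoxc8*, a positional homeobox gene (chromosome 15, 102990539 to 102994275), was 8.88-fold (7.04 to 11.3) higher than in the other stroma and was found at 1013 (caput), 106 (corpus), 47.1 (cauda) and 9.86 UPM (vas deferens). Its level was lower in each library from the caput to the vas deferens, and muscle had 2 UMIs of it against 990 here. Most muscle cells and most other stromal cells came from the vas deferens. For *Hoxc8*, neither the distance to muscle nor that to the other stroma can therefore be told apart from the difference between libraries. *Tcf21*, a factor of fibroblast and visceral stroma (chromosome 10, 22817263 to 22820143), was at 826 (caput), 1217 (corpus), 658 (cauda) and 179 UPM (vas deferens). It was 41.0-fold (29.0 to 60.1) higher than in muscle when pooled and 9.82-fold higher within the vas deferens. Against the other stroma it was 1.83-fold (1.72 to 1.96) higher when pooled, but within the vas deferens the direction turned, to a ratio of 0.376. The smooth muscle coactivator *Myocd* was at 15.9 UPM, 2.81-fold (1.58 to 5.32) above the other stroma and 3.88-fold (2.78 to 5.44) below muscle, and its partner *Srf* at 58.4 UPM. None of the 12 nuclear receptor genes that could be called passed 4-fold against the other stroma.

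In the bone morphogenetic protein and activin list, 8 of 33 genes were higher than in muscle and 1 lower (*Gdf10*), beside 9.96 and 4.6% over all genes, and 0 of 34 were higher and 1 lower than in the other stroma, beside 1.74 and 2.8%. The ligand *Bmp4* had 1071 UMIs here and 2 in muscle (a ratio of 58.8 to 1759), and stood at 224 (caput), 426 (corpus), 198 (cauda) and 46.0 UPM (vas deferens). The activin subunit *Inhba* was at 679.8 (caput), 95.5 (corpus), 116 (cauda) and 37.8 UPM (vas deferens), and follistatin (*Fst*), which binds activin, at 15.8 (caput), 167 (corpus), 1353 (cauda) and 2939.9 UPM (vas deferens). These genes thus ran in opposite directions between the caput and the vas deferens. Of the Wnt list, 12 of 23 were higher than in muscle and 1 lower (*Rspo2*). The ligand *Wnt6* was at 420.3 (caput), 198 (corpus), 65.0 (cauda) and 16.4 UPM (vas deferens), and with 0 UMIs in muscle it was at least 94.4-fold higher, though its level here was also lowest in the vas deferens, the source of most muscle cells. The Wnt antagonist *Sfrp1* was 59.3-fold above muscle, and its relative *Sfrp2* was at 59.3, 21.4, 754 and 1494 UPM from caput to vas deferens. Against the other stroma, 6 of 29 Wnt genes were lower, *Lgr5* and its ligand *Rspo1* among them, and 0 were higher.

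In the growth factor lists, 9 of 23 platelet-derived and fibroblast growth factor genes were higher than in muscle and 2 lower (*Gfra4*, *Kit*), and 0 of 22 were higher and 3 lower than in the other stroma. The all-gene shares were 9.96% higher and 4.6% lower against muscle, and 1.74% higher and 2.8% lower against the other stroma. The receptor *Pdgfra*, found on fibroblasts, was 33.0-fold above muscle, while *Pdgfrb* was 4.60-fold below the other stroma. Insulin-like growth factor genes were divided. *Igf1* was 8.55-fold and the binding protein *Igfbp4* 15.8-fold below the other stroma, whereas *Igfbp2* was 2.80-fold (2.57 to 3.05) above it, at 902 (caput), 835 (corpus), 754 (cauda) and 75.6 UPM (vas deferens). The low-UMI group had 2099 UPM of *Igfbp2* and the stem-like cells 1 UMI. Hedgehog and Notch genes included both genes of that list that were higher than in the other stroma, the receptor *Notch3* and the Notch target *Nrarp*, out of 12. The tight junction gene *Cldn11* had 1095 UMIs here and 2 in muscle (a ratio of 60.1 to 1799) and was 5.18-fold above the other stroma. It was at 569 (caput), 354 (corpus), 82.8 (cauda) and 1.64 UPM (vas deferens). Most muscle cells and most other stromal cells came from the vas deferens, so neither *Cldn11* ratio can be told apart from the difference between libraries. Cardiac troponin T (*Tnnt2*) was 10.4-fold (7.98 to 13.9) above the other stroma and 7.45-fold (5.53 to 10.2) above muscle, at 354 (caput), 268 (corpus), 96.8 (cauda) and 108 UPM (vas deferens). Both genes were lowest in the cauda or the vas deferens.

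**Figure D4:**
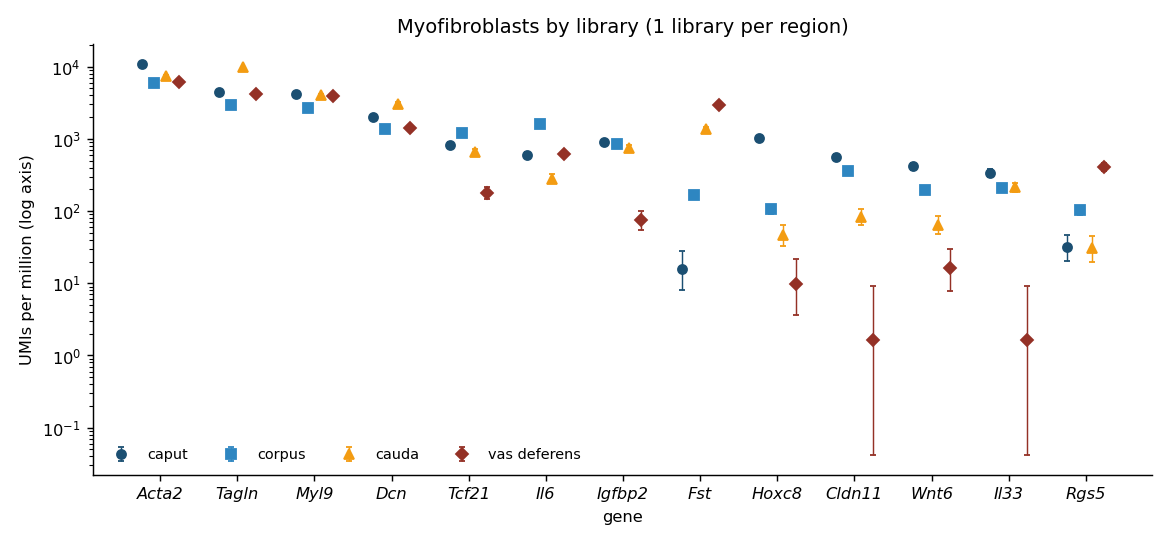
Levels of 13 genes in the myofibroblasts of each of the 4 libraries, in UPM on a log axis with exact Poisson 95% intervals. *Acta2*, *Tagln*, *Myl9* and *Dcn* stay within a few-fold, *Hoxc8*, *Cldn11*, *Wnt6* and *Il33* are lowest in the vas deferens, and *Fst* and *Rgs5* are highest there.

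A level at least 2-fold above each of the 6 compared populations was found for 9 of 5346 genes (0.168%). In order of the smallest of their 6 ratios they were *Cplx2*, *Gja4*, *Bex1*, *Nrarp*, *Fam229a*, *Sncg*, *Mustn1*, *Phactr1* and *Apold1*, with smallest ratios from 3.44 to 2.12. That smallest ratio was against the low-UMI group for 6 of them, and for *Gja4* and *Nrarp* that group had 1 UMI each, which enters the ratio as 3. The complexin *Cplx2*, known for vesicle release, was at 36.9 (caput), 108 (corpus), 29.3 (cauda) and 3.29 UPM (vas deferens). *Bex1* was at 125 (caput), 131 (corpus), 218 (cauda) and 36.2 UPM (vas deferens). The gap junction gene *Gja4*, known from vessels, was at 5.27 (caput), 24.9 (corpus), 25.5 (cauda) and 118 UPM (vas deferens), and *Mustn1*, a small nuclear protein of the musculoskeletal system, at 154 (caput), 107 (corpus), 259 (cauda) and 733 UPM (vas deferens). The first pair was lowest in the vas deferens and the second pair highest there. Without the vas deferens library 0 genes stood 2-fold above all 6 populations, and without the corpus 3 did. The *Gja4* ratio to the other stroma was 19.1 with the vas deferens and 5.11 without it, 56.2 within the vas deferens and 3.30 within the cauda.

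Part of this set moved with pericyte markers. At least 3 of 8 pericyte markers were seen in 58 myofibroblasts (5.95%), of which 4 came from the caput, 18 from the corpus, 5 from the cauda and 31 from the vas deferens, and the summed level of the 8 markers was 155, 379, 143 and 1193 UPM in these libraries. All 8 markers had UMIs in the population. In these 58 cells, with a median of 3194.5 UMIs, *Gja4* was at 280.5 against 23.5 UPM in the other 917 cells, *Apold1* at 965 against 30.4 UPM and *Mustn1* at 819.8 against 217 UPM. *Rgs5* and *Notch3*, which are among the markers that chose these cells, were at 1683 against 42.7 UPM and 146 against 6.30 UPM. *Bex1* went the other way, at 10.8 against 139 UPM, as did *Tcf21*, at 221 against 893 UPM. *Acta2* differed less, at 5415 against 7304 UPM. *Il6* was at 2535 against 903 UPM and *Dcn* at 831 against 1903 UPM. Libraries were pooled here, and the vas deferens library supplied 31 of the 58, beside 21.4% of the whole population. Over all myofibroblasts, *Gja4* and *Mustn1* were also highest in that library, and *Bex1* and *Tcf21* lowest. The part of the library mix in these differences was not tested. The 58 cells sat inside the deposited population and were kept in every other value.

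Few myofibroblasts carried several markers of another cell type, while single markers were seen more often. At least 1 pericyte marker occurred in 447 cells, 1 endothelial marker in 304, 1 luminal epithelial marker in 136 and 1 basal marker in 38. At least 3 of 7 endothelial markers occurred in 7 cells, at least 2 of 5 luminal epithelial markers in 10, at least 2 of 5 basal markers in 5 and at least 2 of 4 glial markers in 3, all 3 from the vas deferens. Immune, clear cell, mesothelial, steroidogenic and adipocyte markers reached their minimum in 0 cells. For the mesothelial and adipocyte lists that outcome was fixed, since both of 2 measured markers were needed and 1 of them had 0 UMIs. The steroidogenic list also needed both of its 2 measured markers, and 27 cells had at least 1. The summed level of the endothelial markers was 135 UPM, against 3218 UPM in the endothelial cells of the atlas, and that of the immune markers was 5.73 UPM against 7595 UPM, with 1 of 7 immune markers at 0. With pericyte markers included, 80 cells (8.21%) carried markers of another type, and without them the contractile share was 4.01%.

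Among the myofibroblasts themselves, cells of each library were ranked by their contractile share and split into 3 groups of about equal size. The highest group (contractile-high) was set beside the lowest (contractile-low), with 55 (caput), 124 (corpus), 50 (cauda) and 63 (vas deferens) cells in each. The ranking used the contractile genes, which are left out of the counts here, and the split is a range, since 53, 176, 36 and 65 cells lay within 0.5 percentage points of a limit. A gene was called when its ratio passed 1.5-fold in the same direction in all 4 libraries. Of 2538 genes, 178 (7.01%) were higher in the contractile-high cells and 54 (2.13%) lower. The contractile-high cells also had more UMIs per cell, with medians of 4506, 4615.5, 5817 and 3376 against 3914, 4028, 3921.5 and 2384, and the part of depth was not tested.

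The genes higher in the contractile-high cells included other muscle genes. *Pcp4* was at 164, 429, 337 and 2083 UPM in the contractile-high and 0, 2.04, 9.58 and 56.9 UPM in the contractile-low cells of the 4 libraries, given in duct order here and below. Cardiac troponin T (*Tnnt2*) was at 791, 733, 193 and 204 UPM against 34.9, 14.3, 4.79 and 6.32 UPM. The sarcomeric protein gene *Fbxl22* had ratios of 4.64, 9.03, 13.7 and 5.82, *Mustn1* of 5.63, 8.05, 8.57 and 2.11, the myosin phosphatase subunit *Ppp1r12a* of 5.58, 6.25, 2.48 and 6.36 and the actin-bundling palladin (*Palld*) of 3.61, 3.24, 3.39 and 4.36.

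Genes of oxidative phosphorylation, a grouping by gene symbol that was chosen after the values were seen, were also higher. Of 69 nuclear genes for complex I, cytochrome bc1, cytochrome c oxidase and ATP synthase subunits that could be compared, 45 were called higher and 0 lower, with a median ratio of 2.39 beside 1.03 over all genes tested. They took 2.84, 2.85, 3.32 and 3.25% of the UMIs of the contractile-high cells and 1.55, 1.36, 1.51 and 1.35% of those of the contractile-low cells. In the whole population the share was 2.09%, between 0.980% in the other stroma and 5.53% in muscle. *Ndufa4* had ratios of 2.19, 3.18, 4.36 and 4.74 and *Cox8a* of 2.12, 2.26, 2.60 and 2.18. Ribosomal protein genes, by contrast, had 0 of 76 called in either direction.

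The genes higher in the contractile-low cells are named here after their values were seen, as were the single muscle genes above. *Il6* was higher in these cells by ratios of 3.04, 4.14, 14.8 and 3.97 in the 4 libraries, the chemokine *Cxcl1* by 9.62, 2.93, 1.74 and 4.04, *Ccl2* by 3.88, 1.79, 2.95 and 6.12 and the interferon-induced *Isg15* by 7.58, 2.87, 7.75 and 5.86. Tissue plasminogen activator (*Plat*) was higher by 3.88, 3.73, 3.99 and 9.47, the latent TGF-beta binding protein *Ltbp4* by 2.40, 2.07, 3.51 and 3.57 and *Tcf21* by 2.96, 2.57, 2.19 and 2.02. Of the cytokine list 5 of 11 genes were called lower in the contractile-high cells, beside 2.13% of all genes. The elastic fibre list had 2 of 11 lower, the interstitial collagens 1 of 9, the complement genes 0 of 4 and the fibroblast markers 0 of 5, and the proteoglycans had 0 of 15 lower and 2 higher. Of the class I histocompatibility genes, grouped after their values were seen, 3 of 3 were lower, with *H2-K1* higher in the contractile-low cells by 3.56, 1.99, 2.10 and 2.78. Cells with markers of other types numbered 5, 10, 4 and 14 among the contractile-low cells and 1, 6, 3 and 7 among the contractile-high, and their part in these ratios was not tested.

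**Figure D5:**
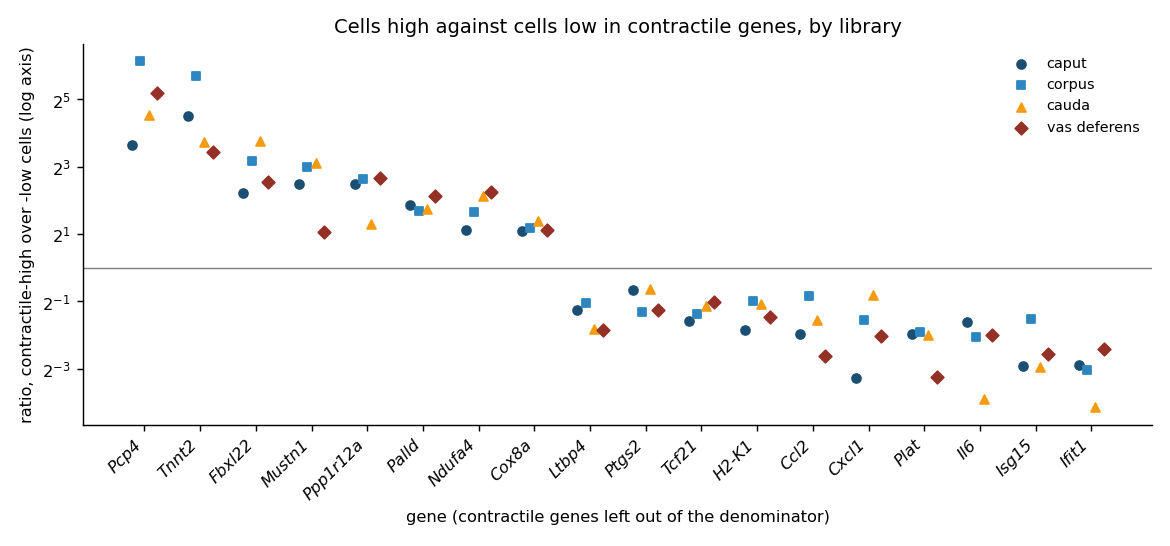
Ratio of the level in contractile-high to that in contractile-low myofibroblasts, for 18 genes in each of the 4 libraries, on a log axis with levels under 3 UMIs set to 3 UMIs. Muscle and respiratory genes lie above 1 in all 4 libraries, and *Ltbp4*, *Ptgs2*, *Tcf21*, *H2-K1*, *Ccl2*, *Cxcl1*, *Plat*, *Il6*, *Isg15* and *Ifit1* lie below 1.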

How the data were processed

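The deposited files held UMI counts per gene and cell for 4 libraries (caput, corpus, cauda and vas deferens) and a table of the cells, from which the population, library, cluster, UMI total and number of genes of each cell were used. Per the study's methods and the submitters' processing notes, the authors aligned the reads to mm10 with HISAT2 2.0.4, counted UMIs per gene, kept barcodes within set UMI limits and subtracted ambient RNA, which can lower true counts of abundant genes. The counts were summed per population and divided by its total UMIs (Python 3.11.15, NumPy 2.4.6, pandas 2.3.3, SciPy 1.17.1). Ratios used a floor of 3 UMIs per group. No model was fitted, since each region is 1 library, and the calling step was tested on simulated data. Doublets were scored with Scrublet in Scanpy 1.11.5, the top-scored cells were marked up to the assumed rate, and all cells were kept.

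The population, gene lists and comparisons were chosen with earlier results of these data known. Genes were named by a rule: the 3 markers, the extreme and the most abundant members of each list, genes that stood out against every compared population or had the largest ratios, genes the study names, markers of other cell types, and contractile genes with a CArG box. Names outside it are marked as chosen after their values were seen. Intervals cover counting error only. The alternatives were other scalings, folds, UMI minimums and depths, single libraries, each library left out, and cells with other markers left out. Some genes of the lists are not reported here.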

Additional observations from a re-analysis of the deposited data

How the results depend on the processing

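No paired analysis was possible because the results come from no test, and ratios within the vas deferens and cauda libraries stand in its place. The vas deferens library held most of the compared cells, and with 1 library left out the counts fell most without it. Fewer genes could be called within single libraries, so those counts do not share the base of the pooled ones. In the cauda, 67 of 4297 genes (1.56%) were higher and 103 (2.4%) lower than in the other stroma. Against muscle there, 338 of 3220 (10.5%) were higher and 107 (3.32%) lower. Pooled shares were 1.74 and 2.8% against stroma, and 9.96 and 4.6% against muscle. Genes higher than in the other stroma numbered 170, and 25 to 243 with 1 library left out (25 without the vas deferens). The count was 278 in cells with at least 1000 UMIs, 67 within the cauda library, 107 with at least 50 UMIs, 111 by the mean over cells, 80 against the mean of the 4 groups' UPM, 959 at 2-fold and 28 at 8-fold. Genes lower than in the other stroma numbered 273, and 145 to 291 with 1 library left out (145 without the vas deferens), 163 within the vas deferens, 103 within the cauda, 772 at 2-fold and 117 at 8-fold. Genes higher than in muscle numbered 871, and 363 to 868 with 1 library left out (363 without the vas deferens), 475 within the vas deferens, 338 within the cauda, 441 against the main muscle group alone, 2130 at 2-fold and 352 at 8-fold. Genes lower than in muscle numbered 402, and 110 to 435 with 1 library left out (110 without the vas deferens), 107 within the cauda, 617 with no UMI minimum, 1393 at 2-fold and 138 at 8-fold. The 9 genes above all 6 groups became 0 to 11 with 1 library left out (3 without the corpus, 0 without the vas deferens), 2 within the cauda, 14 by the mean over cells, 18 with median-of-ratios scaling, 0 at 4-fold and 106 without the low-UMI group. The contractile share of 3.97% was 3.71 to 4.54% with 1 library left out, 3.87% within the vas deferens, 5.02% within the cauda, 4.01% without cells that carried other markers, 3.60% by the mean over cells and 4.88% without ribosomal protein genes. The collagen share of 0.356% was 0.340 to 0.379%, with 0.441% within the vas deferens, 0.404% within the cauda and 0.437% without ribosomal protein genes. The share of cells with all 3 markers, 63.5%, was 59.9 to 73.7%, with 67.5% within the vas deferens, 76.0% within the cauda, 46.7% at 500 UMIs, 69.9% without thinning and 49.5% with at least 2 UMIs of each gene. The *Tcf21* ratio to the other stroma, 1.83, turned to 0.376 within the vas deferens, the 1 reversal among the ratios of the 10 genes for which alternatives were run, and the cause was not tested. The cauda and vas deferens alternatives and the removal of cells with other markers were chosen after seeing the data. Depth limits the low-UMI group most, where 84 cells reached 1000 UMIs.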
